A study of Macrobrachium rosenbergii with 9 samples.

Results

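The data held 21071 transcripts measured in 9 RNA-seq libraries of the giant freshwater prawn Macrobrachium rosenbergii. Of these, 75 were abundant in every androgenic gland library and, relative to that level, scarce in every testis and ovary library. They were chosen on a normalised count, N, which is the deposited read count divided by a median-of-ratios size factor of the library. A member had an N of at least 200 in each gland library, and its highest N in the 6 gonad libraries was at most 1/16 of its lowest gland N. Of 3355 transcripts that reached 200 in every gland library, 75 also met the limit in the gonads. These gland and gonad values chose the members, so the contrast of gland with gonads is given below as a description with no test.

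The groups were testis and androgenic gland from adult males and ovary from adult females, all of the strain labelled CMr1, with 3 libraries each and no treatment named in the labels. Total counts lay between 7142794 in testis 3 and 11231573 in ovary 2. Nothing in the labels ties the libraries to separate animals. The p-values then measure only the spread between libraries, which may be technical. The deposited table pairs no transcript ID with a gene name, and 0 of its IDs matched the 31758 genes of the RefSeq table. The members are therefore described by ID, length and the word Male or Female in the ID, and the tissue labels were not checked against marker genes. Sequences were not used here, and members that are forms of the same gene could split its reads.

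The androgenic gland is an endocrine organ found only in male malacostracan crustaceans, and it lies beside the end part of the sperm duct. It secretes an insulin-like peptide hormone that drives and maintains male differentiation, and in this species removing the gland or silencing its hormone can turn genetic males into functional females. Which of the members, if any, encodes the hormone was not analysed here.

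The members together took 6.22%, 6.83% and 7.59% of the counts in gland 1 to 3. In testis 1 to 3 they took 0.0721%, 0.299% and 0.274%, and in ovary 1 to 3 they took 0.0690%, 0.0659% and 0.0163%. Over the 3 libraries of a tissue (mean ± SD, n = 3), the share was 6.88% ± 0.684 for gland, 0.215% ± 0.125 for testis and 0.0504% ± 0.0296 for ovary. The groups did not overlap between gland and either gonad, which the choice of members fixes. Testis 1 stood close to ovary 1 and 2, and ovary 3 was the lowest library. Counting error alone gave 95% Wilson intervals no wider than 0.0156 percentage points on each side. In whole organs, fewer cells of a type and less RNA per cell cannot be told apart. With counts divided by transcript length before taking the share, the gland mean was 3.43%.

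**Figure D1:**
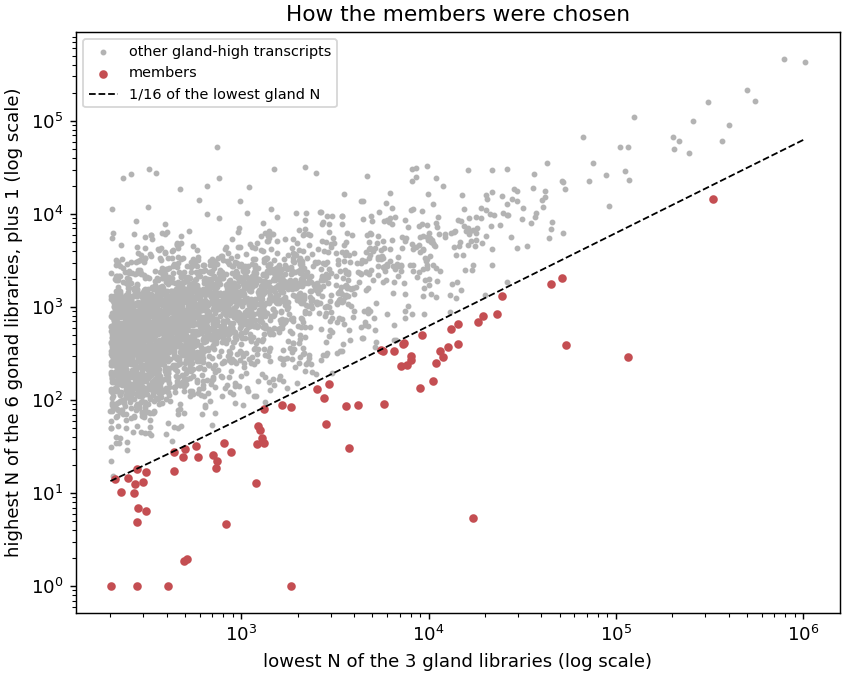
Lowest N of the 3 gland libraries (x axis, log scale) against highest N of the 6 gonad libraries plus 1 (y axis, log scale) for the 3355 transcripts with an N of at least 200 in every gland library. The 75 members (red) lie on or below the dashed line at 1/16 of the gland value, and 4 of them have no gonad count.

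The members were the far end of a range and not a separate group. Of the 3355 gland-high transcripts, 1847 had a gonad library above their lowest gland library, 1197 had a gland level 1 to 4 times their highest gonad level, 168 had 4 to 8 times and 68 had 8 to 16 times. Inside the limit, 42 transcripts had a ratio of 16 to 32, 17 of 32 to 64, 8 of 64 to 256 and 4 of at least 256, while 4 had no gonad count. The 3 members nearest the limit had ratios of 16.1, 16.2 and 16.2, and the 3 transcripts just outside it had 15.8, 15.3 and 14.8. At the gland minimum, the 3 lowest members had a lowest gland N of 202, 212 and 227, and the 3 transcripts just below had 189, 175 and 157. The plot of gland against gonad levels shows no gap at the line.

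How many transcripts met the rule depended on the scaling and on testis 2. The size factors were 0.383 to 0.683 in gland against 1.15 to 1.63 in the gonads, so scaling raises gland values relative to gonad values. With counts scaled to library size, 17 transcripts met the rule, and all 17 were among the 75. With TMM factors 75 did, of which 72 were members. Without testis 2 the rule was met by 155 transcripts, the 75 members and 80 more. Those 80 had a median N of 1761 in testis 2, against 128 in testis 1, 155 in testis 3 and 1.37 for the highest ovary library. Leaving out any other library gave 76 to 99 transcripts. Testis 2 thus set the limit for more transcripts than any other library.

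The member with the highest gland N was transcript_HQ_Male_transcript1010/f7p0/2852, of 2852 bases. Its N was 406238, 771765 and 330359 in gland 1 to 3. In testis 1 to 3 its N was 1656, 14494 and 1454, and in ovary 1 to 3 it was 2.19, 3.70 and 13.2. Gland 2 was its highest gland library, and testis 2 stood far above the other testes. It alone took 2.31%, 2.84% and 2.03% of all counts in gland 1 to 3, and 37.1%, 41.5% and 26.8% of the members' counts there. By mean gland N it ranked 7 among all transcripts, and per base it ranked 16.

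The next by gland N was transcript_HQ_Male_transcript306/f2p0/3578, of 3567 bases, at 116549, 133867 and 138063 in gland 1 to 3. Its N was 113, 152 and 293 in testis 1 to 3 and 2.64, 46.7 and 5.43 in ovary 1 to 3. It was steady in gland, with 1.18-fold between the highest and lowest library, and its lowest gland library was 398 times its highest gonad library. Levels of different transcripts are compared per length, as N per kilobase. On that scale the order changed, with 176293 for the transcript of 2852 bases, 49390 for a male label transcript of 1585 bases, 44731 for one of 1688 bases and 36303 for the transcript of 3567 bases.

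Abundance within the members was very uneven. Mean gland N ran from 307 to 502787 with a median of 4179, and mean gland N per kilobase from 178 to 176293 with a median of 2572. Of the members, 24 had a mean gland N of at least 10000, 34 lay between 1000 and 10000 and 17 were under 1000. The 10 members of highest gland N held 73.3%, 76.5% and 65.4% of the members' counts in gland 1 to 3. It took 3, 3 and 4 members to reach 50% of them. Among the 50 transcripts of highest mean gland N there were 6 members, and among the 100 highest there were 12. Per base, there were 3 among the 50 highest and 7 among the 100 highest. Most of what dominates the gland libraries therefore lay outside the rule.

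**Figure D2:**
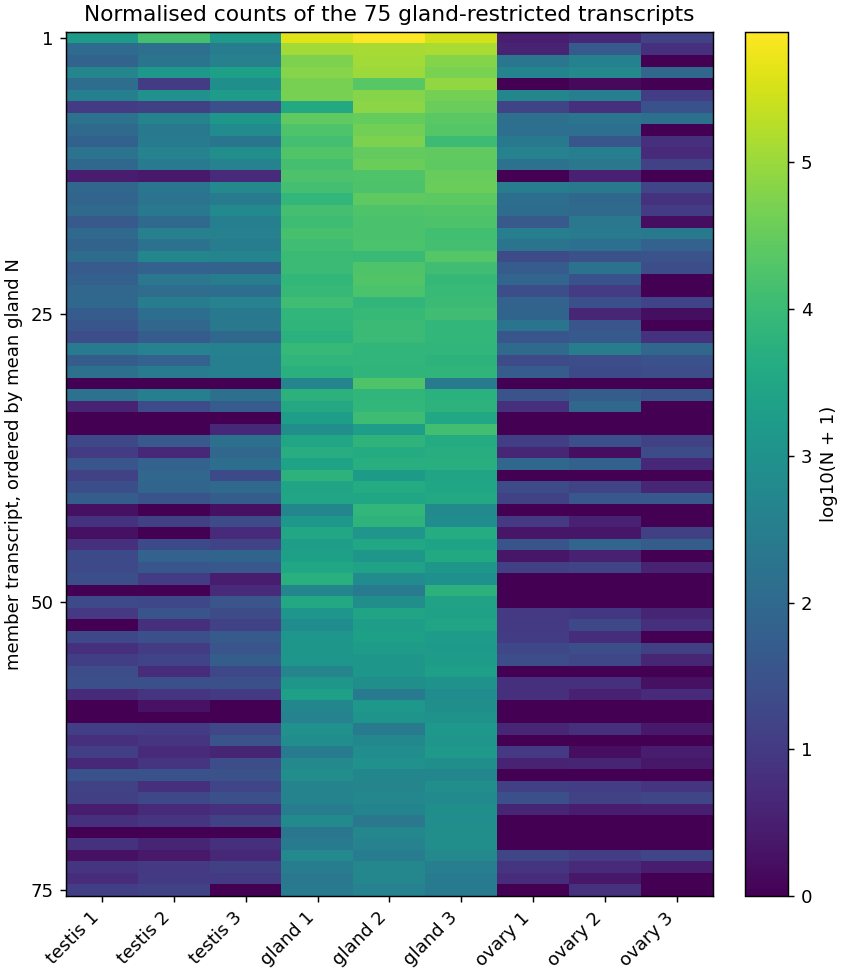
N of the 75 members (rows, ordered by mean gland N from the highest at the top) in the 9 libraries (columns), coloured by log10(N + 1). The gland columns are bright throughout, and testis keeps a lower level of most members. Ovary 3 is dark for many rows in which ovary 1 and 2 are not.

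Lengths were mid-sized. Members had 645 to 3628 bases (median 1534), against a median of 1649 for all 17043 transcripts tested and 2080 for the 3280 other gland-high transcripts. Between 1000 and 2000 bases lay 47 of the 75 members, 62.7%, against 44.6% of those tested and 35.7% of the other gland-high transcripts.

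The male label was carried by 66 of the 75 members, 88.0%. It was carried by 30.5% of all transcripts tested and by 50.7% of the other gland-high transcripts. Gland-high transcripts with a higher ratio of gland to gonad level mostly had a larger share. It was 49.5% for a ratio under 1, 47.9% from 1 to 4, 71.4% from 4 to 8, 80.9% from 8 to 16, 88.1% from 16 to 32 and 82.4% from 32 to 64. All 8 members with a ratio of 64 to 256 and all 4 of at least 256 had it, as did 3 of the 4 with no gonad count. The labels do not say which tissues the Male and Female transcripts were assembled from, so the label cannot be taken as independent of the libraries.

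The female label was carried by 9 members, although the gland exists only in males. Their median mean N in ovary was 3.55, against 14.2 for the male label members, and their median in gland was 845 against 5386. The most abundant of the 9, of 1399 bases, had an N of 13156, 17588 and 36127 in gland 1 to 3. In ovary 1 to 3 it had 295, 234 and 15.9, and in testis 1 to 3 it had 88.7, 201 and 585. A female label transcript of 3628 bases, the longest member, had 407, 1140 and 1047 in gland 1 to 3 and no count in any gonad library, the ovaries included. A female label transcript of 979 bases likewise had no ovary count, at 780, 571 and 1185 in gland 1 to 3 and 5.42, 7.31 and 31.0 in testis 1 to 3. So 3 of the 9 members labelled Female had no count in any ovary library.

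The IDs have the form that long-read isoform clustering gives, in which the number after f counts full-length reads, although the labels do not describe how the transcripts were made. That number was 2, the lowest in the table, for 25 of the 75 members, 33.3%. The same held for 50.7% of all tested and 39.1% of the other gland-high transcripts. The number was 10 or more for 17 members, 22.7%, against 10.7% of all tested and 19.5% of the other gland-high transcripts. The highest was 555, for a male label transcript of 1813 bases with 19561, 29478 and 28651 in gland 1 to 3. The most abundant member in gland had only 7. Across the 75 members the rank correlation (Spearman) of the number with mean gland N was 0.289, a description over transcripts that share libraries.

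By counts, with no test, the members were spread more widely between gland libraries than other gland-high transcripts. The highest gland library was a median of 2.18 times the lowest for members, against 1.54 times for the other 3280. It was less than 2-fold for 34 members, 45.3%, against 77.0% of the others, and more than 4-fold for 15 members, 20%, against 4.45%. Gland 1 was the lowest for 46 members, 61.3%, gland 2 for 16, 21.3%, and gland 3 for 13, 17.3%. Of the other gland-high transcripts these shares were 26.3%, 30.2% and 43.45%. Gland 2 was the highest for 38 members, 50.7%, gland 3 for 27, 36.0%, and gland 1 for 10, 13.3%. Here the shares of the others were 43.0%, 28.8% and 28.2%. Relative to the mean of the 3, the median member stood 0.32 lower on the log2 scale in gland 1 (-0.32), 0.18 higher in gland 2 and 0.08 higher in gland 3. Medians of the other gland-high transcripts were 0.02, 0.06 and -0.07. Gland 2 also had the lowest size factor, 0.383, and its part in these values was not tested.

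**Figure D3:**
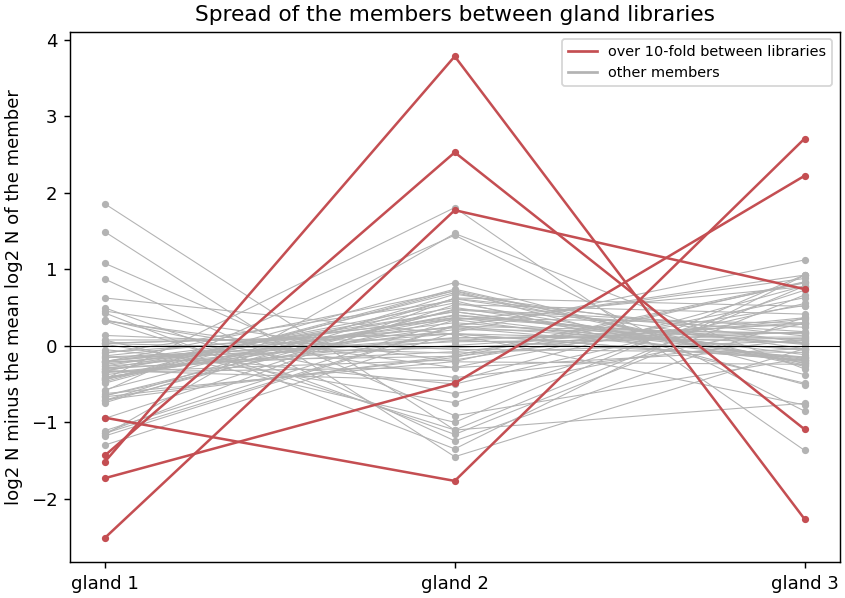
Deviation of each member from its own mean of log2 N over the 3 gland libraries (y axis, log2 units). Each line joins the 3 values of 1 member, and the libraries have no order. The 5 members with more than 10-fold between libraries (red) are highest in gland 2 or gland 3, and the grey lines stay within 2 units of 0.

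The members with more than 10-fold between gland libraries numbered 5, all with the male label, and 3 of them peaked in gland 2. A transcript of 1449 bases had 3752, 73152 and 35767 in gland 1 to 3, and at most 29.2 in any gonad library. One of 1758 bases, the only member with the LQ mark, had 497, 7753 and 630. One of 1904 bases had 465, 18347 and 276 and no gonad count. The other two peaked in gland 3. One of 1296 bases had 493, 278 and 6192, and one of 991 bases had 830, 1963 and 12873. Each of these last had counts in testis 3 only among the gonads, at 3.91 and 3.61. No member with more than 10-fold peaked in gland 1. The transcripts of 1237 and 1194 bases were highest there, at 5463 against 703 and 896, and at 2051 against 267 and 712. The steadiest member, of 916 bases, had 4558, 4175 and 4675.

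A pair of members with neighbouring IDs and lengths of 2309 and 2308 bases was singled out after the values were seen. The longer had 10089, 9195 and 21760 in gland 1 to 3, 117, 499 and 444 in testis 1 to 3, and 22.5, 28.3 and 30.4 in ovary 1 to 3. The shorter had 2255, 1327 and 3678 in gland, 20.5, 69.9 and 79.8 in testis, and 1.32, 2.46 and 0 in ovary. Both were highest in gland 3 and lowest in gland 2, and both were lowest in testis 1 among the testes. The highest testis was testis 2 for the longer and testis 3 for the shorter, and ovary 3 was the highest ovary for the longer and the lowest for the shorter. Whether they are forms of 1 gene cannot be told from the table, and if so their counts could be shared out between them.

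Levels of the members in the gonads were uneven between libraries. Summed over the 75 members, N was 5541, 23309 and 17043 in testis 1 to 3 and 4525, 4553 and 1126 in ovary 1 to 3, against 1095947, 1859229 and 1234409 in gland 1 to 3. These sums are 0.397%, 1.67% and 1.22% of the gland mean for testis and 0.324%, 0.326% and 0.0806% for ovary. In testis 2 the transcript of 2852 bases alone made up 62.2% of the members' counts. Without it the testis sums were 3885, 8815 and 15590, so that testis 3 in place of testis 2 was the highest, and the ovary sums were 4523, 4549 and 1112. Ovary 3 was the lowest ovary in either sum.

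**Figure D4:**
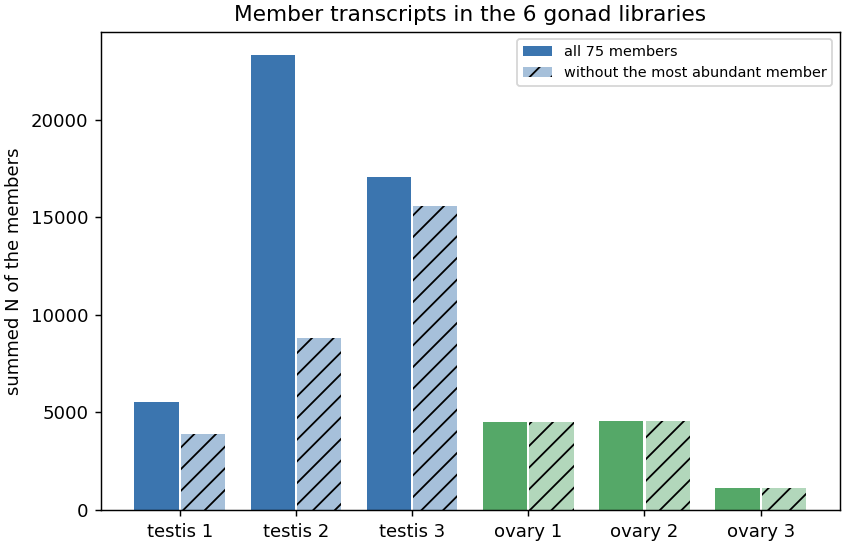
Summed N of the members in each testis (blue) and ovary (green) library, for all 75 members (solid) and without the most abundant member (hatched). Testis 2 falls from 23309 to 8815 when that member is left out, and ovary 3 is the lowest library at 1126.

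The order of the libraries was shared by many members. Among the 71 members with any testis count, testis 1 was the sole lowest for 50, 70.4%, and testis 3 the highest for 54, 76.1%. Over all tested transcripts with a testis count the same held for 32.5% and 32.1%, and over the other gland-high transcripts for 34.5% and 25.7%. Among the 59 members with any ovary count, ovary 3 was the sole lowest for 39, 66.1%, against 31.1% of all tested and 34.2% of other gland-high transcripts with an ovary count. Because the rule caps the highest gonad library, and testis 2 kept 80 transcripts out, the order of the testes among members is in part set by the choice. Of the 24 members with a mean gland N of at least 10000, testis 1 was the lowest testis for 21 and ovary 3 the lowest ovary for 17.

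The ovary pattern was sharp for some abundant members. The male label transcript of 1585 bases had 209, 390 and 0 in ovary 1 to 3, one of 1312 bases had 179, 34.3 and 0, and one of 1011 bases had 80.7, 29.4 and 0. The transcript of 1813 bases had 411, 322 and 4.08. A count of 0 in ovary 3 allows an N of up to 2.04, which is 3 counts in that library. Not all members shared it, since the male label transcript of 1392 bases had 321, 273 and 236. What parts ovary 3 from the other ovaries was not tested.

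Across the 75 members the mean N in testis and in gland had a rank correlation of 0.748, that in ovary and in gland 0.649, and that in testis and in ovary 0.779. These are descriptions over transcripts from the same 9 libraries, and the cap at 1/16 of the gland level lets only abundant members have high gonad levels. The ratio of the lowest gland to the highest gonad library had a median of 28.8 in the band of at least 10000, 30.4 from 1000 to 10000 and 23.2 under 1000, for the members with a gonad count. The median mean N in these bands was 257, 26.1 and 8.33 in testis and 83.7, 9.28 and 1.98 in ovary. Over all tested transcripts the median was 65.3 in testis and 86 in ovary. The most abundant members were thus scarce in testis only relative to gland, not relative to other testis transcripts.

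A few members had next to nothing in the gonads. The 4 with no count in any of the 6 gonad libraries were the transcripts of 1904, 1716, 1782 and 3628 bases. The one of 1716 bases had 1847, 11450 and 3354 in gland 1 to 3, and the one of 1782 bases had 202, 538 and 824. A count of 0 in a single library allows an N of 1.84 to 2.61 in the gonads, taken as 3 counts. In ovary 16 members had no count in any library, and 12 of these had some count in testis. No member had counts in ovary and none in testis. Of 17043 tested transcripts, 11 had no count in both gonads and 214 had testis counts but no ovary count. Ovary counts with no testis count were found for 1087 of those tested, and for 0 of the 3280 other gland-high transcripts.

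The rule names no direction between testis and ovary, and this contrast was tested, in 1 fit of all 17043 transcripts with edgeR's quasi-likelihood test. The rule does cap the highest of the same testis and ovary values. Testis 2 alone kept out 80 transcripts, with a median N of 1761 there against 1.37 in the highest ovary library. The calls and shares below are therefore in part set by the choice of members. Calls needed an adjusted p (Benjamini-Hochberg) under 0.05 and a log2 fold change of at least 1 in size. Testis was higher than ovary for 27 members, 36.0%, and ovary higher for 2, 2.67%, while 46 were not called. Over all transcripts tested 46.1% were called, 19.6% higher in testis and 26.5% higher in ovary. Of the other gland-high transcripts 39.1% were called, 25.4% higher in testis and 13.8% higher in ovary. The members' called share of 38.7% was thus close to that of gland-high transcripts in general and below that of all tested. The median log2 fold change of testis over ovary was 1.26 for members, 0.24 for the other gland-high transcripts and -0.08 for all tested. The log2 fold change was above 0 for 64 of the 75 members. This held for 8197 of the 17043 tested and for 1891 of the 3280 other gland-high transcripts. The 4 members with no gonad count had a value of 0. All 75 passed the filter on low counts, which their gland counts alone ensure, so these shares are no support in themselves. With testis and ovary fitted alone, 54 members had enough counts, and 18 of them, 33.3%, were called against 47.6% of the 16498 transcripts tested. Of these 16 were higher in testis, 29.6% against 19.9%, and 2 in ovary, 3.70% against 27.7%.

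The libraries of testis lay wholly above those of ovary for 25 members, 33.3%, against 26.1% of all tested, and wholly below for 2, 2.67%, against 37.1%. In the other gland-high transcripts these shares were 34.8% and 28.0%, so the share with testis above was no higher among members. Of the 27 testis-higher members, 8 had no ovary count and 19 had some. Leaving out 1 library at a time gave 20 to 28 calls among members, with 37.5% to 46.2% called over all transcripts tested. Of the 29 called members 19 were called in all 9 such fits, and all 29 kept their sign. The 10 others lost the call in at least 1 fit, 9 of them without testis 3 and 8 without each of the ovary libraries in turn.

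**Figure D5:**
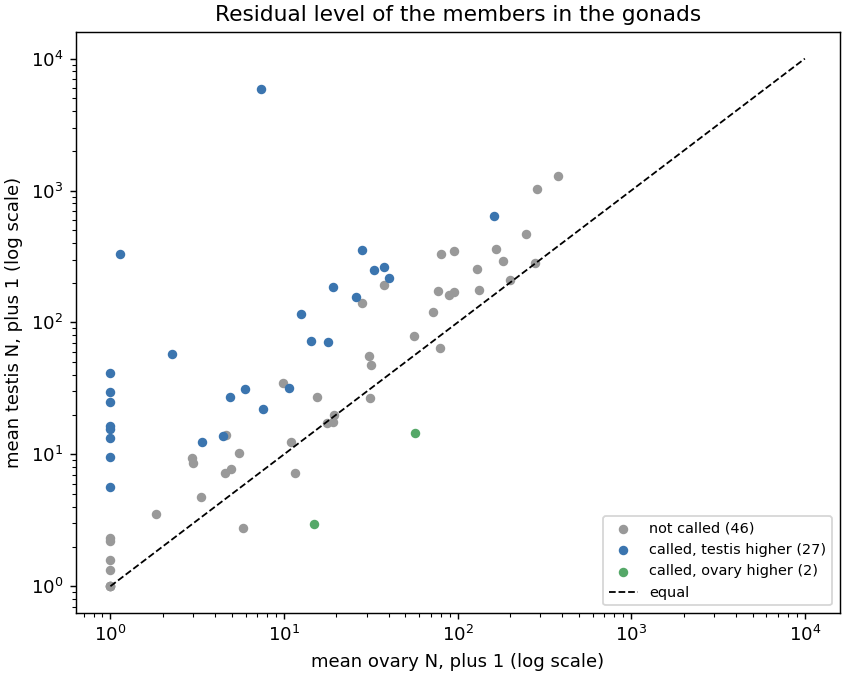
Mean N plus 1 in ovary (x axis, log scale) against testis (y axis, log scale) for the 75 members, each a mean of 3 libraries. Of these 27 were called higher in testis (blue), 2 higher in ovary (green) and 46 were not called (grey), and the dashed line marks equal levels.

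A large difference between the gonads was that of transcript_HQ_Male_transcript1010/f7p0/2852, whose values in every library stand above. Its log2 fold change of testis over ovary was 9.75 with a rough SE of 1.56 (edgeR, adjusted p = 0.0014). Its ratio of total normalised counts was 980-fold, with a 95% counting interval of 682 to 1463. The size rested in part on testis 2, since the log2 fold change was 7.88 without it (edgeR, adjusted p = 0.00072), and it was 10.64 without ovary 3 (edgeR, adjusted p = 0.0057). Every testis library was above every ovary library. For transcript_HQ_Male_transcript306/f2p0/3578 it was 3.36, rough SE 1.02 (edgeR, adjusted p = 0.024), and the call was lost without testis 3, ovary 1 or ovary 3. Its size rested on ovary 2, the highest ovary library for this member, without which the log2 fold change was 5.29. The adjusted p of that member reached 0.076 over the 9 fits that left out 1 library.

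The other testis-higher member named by size of change was transcript_HQ_Male_transcript3067/f2p0/2097, of 2097 bases. Its N was 128, 9.86 and 846 in testis 1 to 3 and 0, 0.387 and 0 in ovary 1 to 3, with 48528, 23036 and 87666 in gland 1 to 3. Number 3 was the highest and number 2 the lowest in both male tissues. The fitted log2 fold change was 8.25, rough SE 1.64 (edgeR, adjusted p = 0.0037), and it was 6.02 without testis 3 (edgeR, adjusted p = 0.0066). The ratio of total normalised counts was 1463, with a counting interval from 262 to 57842, and rested on 1 rounded count in ovary. Which of these 2 members changed more depended on the measure, since DESeq2 gave 10.47 for this one and 9.90 for the former, and edgeR without testis 2 gave 8.80 and 7.88.

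Both members with more in ovary were low in the gonads and carried the male label. For transcript_HQ_Male_transcript7807/f6p0/1277, of 1277 bases, N was 15.8, 10.5 and 15.6 in ovary 1 to 3 and 0.872, 1.58 and 3.49 in testis 1 to 3, against 602, 308 and 584 in gland 1 to 3. Its log2 fold change of testis over ovary was -2.29 with a rough SE of 0.45 (edgeR, adjusted p = 0.0035). For transcript_HQ_Male_transcript2438/f13p0/2249, of 2249 bases, N was 33.0, 83.0 and 52.3 in ovary and 5.23, 20.5 and 14.8 in testis, against 1846, 3223 and 2623 in gland. Here the log2 fold change was -1.91, rough SE 0.49 (edgeR, adjusted p = 0.012). For each of them every ovary library was above every testis library.

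Among the members with no ovary count, the male label transcript of 645 bases had nearly equal testis libraries, at 28.8, 29.0 and 28.5. It was at least 44.3-fold higher in testis, against a floor of 3 counts over the 3 ovary libraries (edgeR, adjusted p = 0.00018). A male label transcript of 1135 bases had 19.2, 18.1 and 34.0 in testis 1 to 3 and was at least 36.3-fold higher (edgeR, adjusted p = 0.0018). One of 969 bases had 13.1, 87.7 and 20.5 and was at least 64.6-fold higher (edgeR, adjusted p = 0.0042), a value that leaned on testis 2, without which the fitted log2 fold change went from 5.53 to 4.33. In gland 1 to 3 these 3 transcripts had 815, 514 and 503, then 3500, 808 and 2477, then 6552, 1646 and 2775. All 3 were highest in gland 1, and they were picked after their values were seen.

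Several of the most abundant members were not called between the gonads. The transcript of 1585 bases had 73.9, 179 and 372 in testis 1 to 3 beside its ovary values of 209, 390 and 0, and its log2 fold change was 0.15, rough SE 1.42 (edgeR, adjusted p = 0.94). The transcript of 1449 bases had 9.59, 11.8 and 27.0 in testis and 15.2, 5.53 and 29.2 in ovary, with a log2 fold change of 0.04 and a rough SE of 0.94 (edgeR, adjusted p = 0.98). With errors of this size a difference of several-fold could have been missed. The transcript of 1392 bases was better defined, at 99.7, 364 and 373 in testis and 321, 273 and 236 in ovary, with a log2 fold change of 0.09 and a rough SE of 0.46 (edgeR, adjusted p = 0.88). Of the 24 members with a mean gland N of at least 10000, 7 were called higher in testis. From 1000 to 10000 it was 14 of 34, and under 1000 it was 6 of 17. Of all transcripts tested 19.6% were called higher in testis, and of the other gland-high transcripts 25.4%. Members passed the filter on their gland counts alone, and 6 of the 29 called had too few counts for a fit of testis and ovary alone. The counts by band are therefore no support in themselves. The pair called higher in ovary lay below 10000.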

How the data were processed

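Per the labels' protocols, tissues were dissected from prawns anaesthetised on ice, rinsed and frozen, and a directional Illumina kit was used. The deposited table holds estimated counts (expected counts) per transcript, called read counts in the file headers, with transcript lengths. Between 46.9% and 64.3% of a library's values were whole numbers. The submitters' processing notes name Bowtie 0.12.2 and DESeq 1.10.1 without roles, and a mouse build, mm8. The tool that counted the reads is unknown here, not given in the sources used.

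N is the deposited count over a median-of-ratios size factor from 11287 transcripts with counts in all 9 libraries. Counts were rounded and fitted with edgeR 4.0.16 (R 4.3.3), with TMM factors, a mean per tissue, filterByExpr at its defaults (minimum count 10, minimum total 15), a prior count of 1 and 6 residual degrees of freedom. All p-values were adjusted over the 17043 transcripts tested. The rough SE divides the size of the log2 fold change by the root of the F statistic. DESeq2 1.42.0 was an alternative. Counting intervals are exact conditional binomial at 95%, from counts rounded over a tissue. The fit was tested on data simulated with known changes in testis. It recovered 14% of 4-fold increases and 10% of 4-fold decreases, and 78% and 60% at 16-fold. There were 3 false calls among 16632 transcripts. The simulation gave each transcript 1 mean over all 9 libraries, gland included, and changed only a small part of the transcripts. In the real data 46.1% were called, and the members are far lower in the gonads than in gland. These rates therefore cannot be carried over to the members, and a member that was not called may still differ by 4-fold or more. Same-numbered testis and gland libraries deviated together from their tissue means (correlations over 17043 transcripts of 0.417, 0.388 and 0.289). Other numbers were below 0, which centring on the mean of 3 libraries favours. The numbers may pair the male tissues, and the labels do not say whether by animal or otherwise. This comes from the data, and no contrast between them was tested. The main fit took all 9 libraries as independent and drew its spread from gland too. If the numbers pair the male tissues, its 6 residual degrees of freedom may be too many, which limits the p-values.

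IDs were printed for the 2 members of highest mean gland N and, between testis and ovary, for at most 2 called each way with the largest change, no overlap between the tissues and a mean N of at least 5 in the higher. The members, and all lists, were chosen with earlier results of these data known. The rule for named transcripts had also a list of marker genes, which could not be matched.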

Additional observations from a re-analysis of the deposited data

How the results depend on the processing

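The count of members called between testis and ovary was 29, and 26 with library-size scaling, 29 with RLE size factors, 33 with DESeq2 (73 members with an adjusted p), 28 with no filter on low counts and 29 with no minimum fold change. Over all transcripts tested, 46.1% were called in the main fit, 43.8% with library-size scaling and 46.0% with RLE size factors. With DESeq2 50.7% were called, and with no filter 39.3%. The count of members was 18 with testis and ovary fitted alone, where 6 of the 29 had too few counts to be tested and 5 were not called. There 47.6% of all tested were called. Leaving out 1 library gave 20 to 28 members, with 37.5% to 46.2% called over all tested. Library-size scaling moved the median over all tested transcripts (log2) from -0.08 to -0.23, and that over members from 1.26 to 1.42. With the replicate number as a block the count of members was 25, 23 higher in testis and 2 in ovary, and 44.2% of all tested were called. Same-numbered testis and ovary libraries correlated at -0.14, -0.0814 and 0.00855 in their deviations from tissue means, so the numbers were not taken to pair these tissues.

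The log2 fold changes of the 4 transcripts named for this contrast stayed past the threshold in every fit. Leaving out 1 library gave 7.88 to 10.64, 6.02 to 8.80, -2.72 to -2.04 and -2.28 to -1.52, in the order of the text.

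The number of transcripts that met the rule was 143 at a gonad limit of 1/8, 33 at 1/32, 85 at a gland minimum of 100 and 62 at 400. Leaving out 1 library gave 76 to 155.

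The members' mean share of counts without the 10 of highest gland N was 1.96% in gland, 0.0758% in testis and 0.0318% in ovary. Divided by length it was 3.43%, 0.135% and 0.0436%. Leaving out 1 library gave 6.53% to 7.21% in gland, 0.173% to 0.287% in testis and 0.0411% to 0.0675% in ovary. At 3 counts or fewer were 36 members in ovary 3 and 8 to 22 in the other gonad libraries, where depth limits what can be said.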
